A study of Mus musculus with 6 samples.

Results

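Hepatokines are proteins that hepatocytes release into the blood and that act on other organs or on the liver itself. The 9 genes described here were taken as a list of liver-secreted endocrine factors, by symbol and without use of their measured values: *Fgf21*, *Ahsg*, *Fetub*, *Selenop*, *Lect2*, *Angptl4*, *Angptl8*, *Gdf15* and *Inhbe*. All 9 were present among the 25184 genes of the deposited count table and passed the filter on low counts, as 9 of 15105 genes tested. Their transcripts were measured by stranded mRNA sequencing in primary hepatocytes from 3 Hep-Sucnr1 KO mice and 3 Sucnr1 fl/fl mice (the controls), to ask whether loss of the succinate receptor SUCNR1 changes the zonation genes of hepatocytes. Both genotypes carried floxed *Sucnr1* alleles with loxP sites around exon 2, control mice were Cre-negative, and Hep-Sucnr1 KO mice carried 1 Alb-Cre transgene, so Cre was driven by the albumin promoter of hepatocytes and no group had Cre without floxed alleles. Mice were on chow, their age and sex were not given for these samples, and hepatocytes of the left lateral lobe were obtained by enzymatic digestion and a density gradient and lysed after a night on collagen in attachment medium. Replicate 1 of Sucnr1 fl/fl and replicate 3 of Hep-Sucnr1 KO belonged to extraction day 1, and Sucnr1 fl/fl replicates 2 and 3 and Hep-Sucnr1 KO replicates 4 and 5 to day 2.

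The members cover several modes of endocrine action. FGF21 is a fasting and stress hormone that signals through FGF receptors with the co-receptor β-Klotho. GDF15 is a stress cytokine that acts on the brainstem to lower food intake. ANGPTL4 and ANGPTL8 set where triglyceride is taken up by acting on lipoprotein lipase, ANGPTL8 as a feeding-induced and ANGPTL4 as a fasting-induced factor. Fetuin-A (*Ahsg*) and fetuin-B (*Fetub*) are abundant plasma glycoproteins of the cystatin superfamily, selenoprotein P (*Selenop*) carries selenium to other tissues, LECT2 is a circulating chemotactic factor linked to insulin resistance in muscle, and *Inhbe* encodes the subunit of activin E, a liver signal to adipose tissue.

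The libraries held 30504248 to 38770694 counts, of which the 9 hepatokines took 0.869% to 1.098% and the 20 most abundant genes 23.3% to 26.9%. *Sucnr1* itself was measured first, as a check of the labels: it reached 6.71, 3.55 and 3.40 CPM (counts scaled to a common library size with TMM factors) in Sucnr1 fl/fl replicates 1 to 3, against 2.66, 0.827 and 0.152 in Hep-Sucnr1 KO replicates 3 to 5. The genotypes did not overlap, with a log2 fold change of -2.23 (SE 0.54), which did not pass the adjustment over all genes (adjusted p = 0.998, quasi-likelihood test of edgeR, adjusted after Benjamini and Hochberg), and 84 read pairs remained in Hep-Sucnr1 KO replicate 3. The 6 hepatocyte markers summed to 65525.3 to 88297.9 CPM in the controls and 56315.1 to 90661.9 CPM in Hep-Sucnr1 KO libraries, while the 6 Kupffer cell markers summed to 20.3 to 74.4 and 3.61 to 63.9 CPM, the 6 sinusoidal endothelial markers to 23.9 to 43.6 and 18.6 to 31.1 CPM, the 6 stellate cell markers to 5.87 to 24.1 and 4.70 to 9.41 CPM, the 5 cholangiocyte markers to 350.2 to 511.6 and 425.8 to 650.4 CPM, and the 4 adipocyte markers to 5.53 to 9.13 and 4.25 to 7.31 CPM, with *Lep* at 0. Most of the cholangiocyte sum came from *Spp1* (mean 367.2 CPM over all libraries) and *Sox9* (105.8 CPM). Of its other markers, named after their values were seen, *Epcam* was at 1.67, *Krt19* at 0.508 and *Krt7* at 0.122 CPM. Nearly all of the adipocyte sum was *Cidec* (6.75 CPM). Since whole cultures were lysed, fewer cells of a type and less RNA per cell cannot be told apart.

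The hepatokines differed widely in level. Per length (CPM divided by the exon length in kilobases, RPKM, mean ± SD, n = 6 libraries), *Ahsg* stood first at 2407.5 ± 250.2, rank 42 of the 15105 genes, and *Selenop* followed at 1278.7 ± 127.6, rank 66. *Gdf15* at 164.6 ± 28.1 and *Fetub* at 158.0 ± 11.5 RPKM formed a second tier, *Angptl4* at 45.6 ± 9.54, *Lect2* at 37.9 ± 22.6 and *Angptl8* at 32.8 ± 28.2 RPKM a lower one, and *Fgf21* at 0.930 ± 0.61 and *Inhbe* at 0.489 ± 0.26 RPKM stood last, at ranks 9820 and 11249. *Ahsg* exceeded *Selenop* in 6 of 6 libraries, and between tiers the higher gene did so too. Within them neighbours overlapped: *Gdf15* exceeded *Fetub* in 2 of 6 libraries, *Angptl4* exceeded *Lect2* in 4, *Lect2* exceeded *Angptl8* in 5, and *Fgf21* exceeded *Inhbe* in 5. The last pair depends on gene length, since the annotation gives *Inhbe* a long first exon: over the RefSeq gene span in place of the exon union its level was 1.06 RPKM.

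*Ahsg* and *Selenop* together accounted for 89.3% to 92.0% of the counts of the 9 genes in a library. All 9 genotype ranges overlapped in CPM, as the plot of the 9 genes by library shows. For comparison, 10.6% of all genes tested had genotypes that did not overlap.

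**Figure D1:**
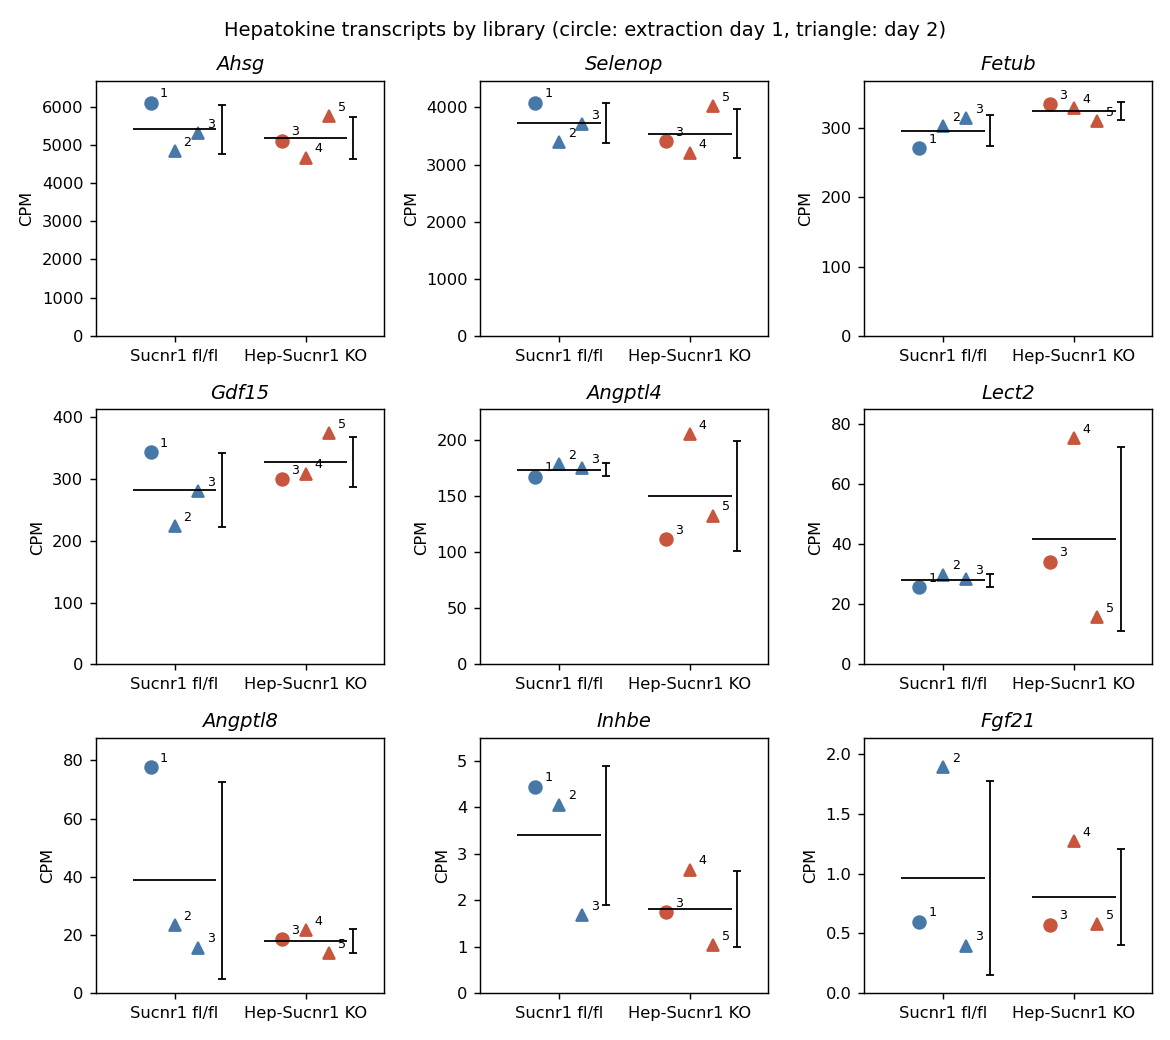
CPM (TMM-scaled, linear axis from 0) of the 9 hepatokines in each library, with numbers giving the replicate, horizontal lines the group mean and bars the SD of 3 libraries. The genotypes overlap for all 9 genes, *Lect2* of Hep-Sucnr1 KO replicate 4 and *Angptl8* of Sucnr1 fl/fl replicate 1 stand far above the rest, and *Ahsg*, *Selenop* and *Fetub* stay within 1.31-fold between any libraries.

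No hepatokine passed the genotype test. At an adjusted p under 0.05, 0 of the 9 were called by edgeR and 0 by DESeq2, where edgeR called 0% of all 15105 genes and DESeq2 0.0463%. DESeq2 gave no adjusted p for *Fgf21* by genotype, so it could not be called there. At an unadjusted p under 0.05, there were also 0 of the 9, against 3.73% of all genes. The point estimates lay higher in Hep-Sucnr1 KO for 3 members (*Fetub*, *Gdf15*, *Lect2*) and lower for 6, with a median log2 fold change of -0.07 beside 0.00 over all genes tested. The adjusted p was 0.998 for each of the 9 (edgeR), so it is not repeated below, where the SE and 95% interval of each fold change are given.

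**Figure D2:**
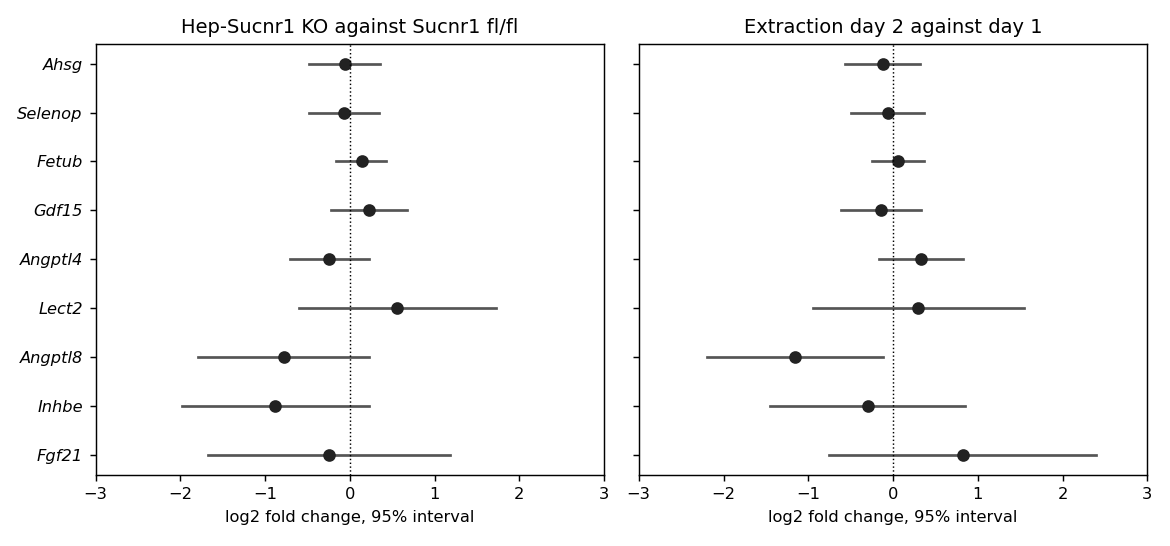
Log2 fold change (points) with 95% interval (lines) of each hepatokine in the edgeR fit of genotype and extraction day, for genotype (left, Hep-Sucnr1 KO over controls) and day 2 against day 1 (right). All 9 genotype intervals include 0, the narrowest being that of *Fetub* (-0.16 to 0.43) and the widest that of *Fgf21* (-1.67 to 1.18), and of the day intervals only that of *Angptl8* lies below 0.

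The abundant plasma proteins were the steadiest members, with coefficients of variation over the 6 libraries of 7.25% (*Fetub*), 9.98% (*Selenop*) and 10.4% (*Ahsg*) in CPM, against 17.1% to 86.1% for the other 6 genes. *Ahsg* (ENSMUSG00000022868, chr16:22891277-22899449, plus strand, GRCm38), whose product fetuin-A binds mineral and inhibits the insulin receptor, was at 6099.3, 4828.5 and 5296.1 CPM in control replicates 1 to 3 and 5109.1, 4656.5 and 5746.2 CPM in Hep-Sucnr1 KO replicates 3 to 5. The highest and lowest library differed by 1.31-fold, and both genotypes held high and low libraries. The log2 fold change (here and below for Hep-Sucnr1 KO over the controls) was -0.06 (SE 0.18, 95% interval -0.48 to 0.36), an interval of 0.717 to 1.28 as a ratio (p = 0.6, two-sided exact permutation test, which cannot go below 0.1 here).

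*Fetub* (ENSMUSG00000022871, chr16:22918334-22939778, plus strand), the neighbouring gene of the fetuin pair, had a closer spread still. It was at 270.9, 302.8 and 313.6 CPM in the controls and 334.2, 328.7 and 310.0 CPM in Hep-Sucnr1 KO. Only 1 control library lay above the lowest Hep-Sucnr1 KO library, so the groups came near to separating, with means of 295.8 ± 22.2 and 324.3 ± 12.7 CPM (SD, n = 3 per genotype). At 0.14, the log2 fold change (SE 0.12, 95% interval -0.16 to 0.43) left room for changes from 0.897-fold to 1.34-fold, and the exact permutation test gave p = 0.2.

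*Selenop* (ENSMUSG00000064373, chr15:3268547-3280508, plus strand), the selenium carrier, was at 4083.3, 3394.5 and 3702.4 CPM in the controls and 3409.2, 3194.4 and 4020.5 CPM in Hep-Sucnr1 KO. Its libraries ranked in the same order as those of *Ahsg*, from Sucnr1 fl/fl replicate 1 down to Hep-Sucnr1 KO replicate 4, and the ratio of *Ahsg* to *Selenop* stayed between 1.42 and 1.50 in CPM. The genotype difference was -0.07 on the log2 scale (SE 0.17, 95% interval -0.48 to 0.34).

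Of the 26 listed selenoproteins and factors for their synthesis other than *Selenop*, 25 could be tested and 0 passed in either direction at an adjusted or unadjusted p under 0.05 (edgeR), with 19 point estimates higher and 6 lower in Hep-Sucnr1 KO and a median of 0.08. *Secisbp2*, which binds the selenocysteine insertion element, was at 10.5 ± 1.24 CPM in the controls and 9.92 ± 0.742 CPM in Hep-Sucnr1 KO. Among its genes of at least 1 CPM the highest log2 fold change was 0.40 (SE 0.29) for *Dio1*, the deiodinase that activates thyroid hormone, and the lowest -0.15 (SE 0.12) for *Selenoo*.

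The stress hormones differed widely in level. *Gdf15* (ENSMUSG00000038508, chr8:70629393-70632456, minus strand) was at 343.1, 223.4 and 280.1 CPM in the controls and 299.7, 308.3 and 374.3 CPM in Hep-Sucnr1 KO. The genotypes overlapped, with the lowest value in Sucnr1 fl/fl replicate 2 and the highest in Hep-Sucnr1 KO replicate 5. The means of 282.2 ± 59.9 and 327.4 ± 40.8 CPM (SD, n = 3 each) corresponded to 0.23 on the log2 scale (SE 0.19, 95% interval -0.22 to 0.67), and to 0.08 without Sucnr1 fl/fl replicate 2. On day 1 the ratio of Hep-Sucnr1 KO to Sucnr1 fl/fl was 0.873 and on day 2 it was 1.36.

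*Fgf21* (ENSMUSG00000030827, chr7:45613886-45615490, minus strand), by contrast, had few read pairs. It was at 0.598, 1.89 and 0.396 CPM in the controls and 0.570, 1.27 and 0.577 CPM in Hep-Sucnr1 KO, from 12 to 63 read pairs a library. Each genotype had 1 library well above its other libraries, Sucnr1 fl/fl replicate 2 with 63 read pairs (95% Poisson interval 48.4 to 80.6, counting error only) and Hep-Sucnr1 KO replicate 4 with 43 (31.1 to 57.9). In unscaled counts the interval of the first lay above that of the next control, Sucnr1 fl/fl replicate 1 with 23 read pairs (14.6 to 34.5). That of the second lay above that of the next library of its genotype, Hep-Sucnr1 KO replicate 5 with 19 (11.4 to 29.7). The second interval overlapped those of Sucnr1 fl/fl replicates 1 and 2. The log2 fold change of -0.24 (SE 0.60) had an interval of 0.315-fold to 2.27-fold, and it turned to 0.63 without Sucnr1 fl/fl replicate 2. With this spread between libraries, the data left room for any fold change within that interval.

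*Inhbe* (ENSMUSG00000047492, chr10:127348857-127354411, minus strand), which like *Fgf21* is a known target of the stress factor ATF4, was at 4.45, 4.06 and 1.68 CPM in the controls and 1.74, 2.66 and 1.03 CPM in Hep-Sucnr1 KO. The highest values were those of Sucnr1 fl/fl replicates 1 and 2, while replicate 3 lay within the Hep-Sucnr1 KO range. Means were 3.40 ± 1.50 and 1.81 ± 0.815 CPM (SD, n = 3 per genotype). Its log2 fold change of -0.88 (SE 0.46, 95% interval -1.98 to 0.23) was the lowest of the 9, and it ran from -1.42 to -0.55 when single libraries were left out. Sucnr1 fl/fl replicates 1 and 2 also carried library index numbers from another stretch of the index set than the other 4 libraries, and with that split as a further term the log2 fold change was 0.10. The part of the index split in the difference was not tested, and only control libraries lie on its smaller side.

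Integrated stress response targets were also followed, since ATF4, with its partner CHOP (*Ddit3*), is known to induce *Fgf21* and *Inhbe*. Of 26 listed genes 20 had a higher and 6 a lower point estimate in Hep-Sucnr1 KO, with a median log2 fold change of 0.07, and 0 passed at an adjusted or unadjusted p under 0.05 (edgeR). *Atf4* was at 149.8 ± 22.9 CPM in the controls and 163.4 ± 19.1 CPM in Hep-Sucnr1 KO, and *Ddit3* at 13.0 ± 3.59 and 14.5 ± 2.34 CPM. The highest log2 fold change was 0.43 (SE 0.52) for the cystine transporter *Slc7a11* and the lowest -0.52 (SE 0.60) for the serine synthesis enzyme *Phgdh*. Both genes were highest in Sucnr1 fl/fl replicate 2, at 73.1 and 4.57 CPM, the library with most *Fgf21*. *Ddit3* went the other way. Its lowest values, 8.87 and 12.4 CPM, were in Sucnr1 fl/fl replicate 2 and Hep-Sucnr1 KO replicate 4, the libraries with most *Fgf21*, against 14.2 to 17.0 CPM elsewhere.

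The promoters of these genes are shown because they hold the letters of the composite element of ATF4 and CHOP. RefSeq promoter windows, of 250 bases before to 50 bases after a transcript start on GRCm38.p6, were found for 8 of the 9 members (12 windows, all members but *Angptl4*). The letters TGATGNAA, searched on both strands, occurred in windows of *Fgf21*, *Angptl8* and *Inhbe* and in 3.97% of all 32851 windows. In the lines below the element is in capitals and the strand is that of the gene. For *Fgf21* (chr7:45615491-45615740, minus strand) and *Angptl8* (chr9:21835260-21835509, plus strand) the 250 bases before the start are given, and for *Inhbe* the element with 10 bases on each side, from the window chr10:127351849-127352098 on the minus strand.
Fgf21: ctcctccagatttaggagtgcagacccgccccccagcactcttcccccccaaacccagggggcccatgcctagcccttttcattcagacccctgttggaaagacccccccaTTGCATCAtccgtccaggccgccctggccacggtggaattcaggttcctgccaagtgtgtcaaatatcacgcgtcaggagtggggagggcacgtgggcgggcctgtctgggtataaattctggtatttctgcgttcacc
Angptl8: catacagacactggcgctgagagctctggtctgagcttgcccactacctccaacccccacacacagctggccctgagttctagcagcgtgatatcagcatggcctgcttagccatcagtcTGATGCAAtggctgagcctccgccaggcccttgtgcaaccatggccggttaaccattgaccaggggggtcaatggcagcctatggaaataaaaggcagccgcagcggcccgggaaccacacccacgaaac
Inhbe: atcctctttcTTGCATCAtgcatgtcca
In *Fgf21* and *Inhbe* the element lies on the strand opposite to the gene, so that its reverse complement is printed, at positions -139 to -132 and -181 to -174 from the start, and in *Angptl8* it lies on the gene's own strand at -130 to -123. The E-box CACGTG, bound by several basic helix-loop-helix factors, occurred in *Fgf21* at -50 to -45 and in 1 window of *Gdf15* at -83 to -78, as in 7.15% of all windows. A direct repeat of AGGTCA with 1 base between the copies, the exact letters of a PPAR element, was in the window of 0 members and in 0.0396% of all windows. These matches describe letters in the windows and were not linked to binding.

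The lipase regulators differed in where their spread lay. *Angptl4* (ENSMUSG00000002289, chr17:33773750-33781830, minus strand) was at 166.9, 178.1 and 174.8 CPM in the controls and 111.5, 204.8 and 132.4 CPM in Hep-Sucnr1 KO. The controls were nearly equal, with a coefficient of variation of 3.33%, whereas the Hep-Sucnr1 KO libraries lay on both sides of them, with 32.8%. The log2 fold change was -0.24 (SE 0.20, 95% interval -0.71 to 0.23), and it was -0.49 without Hep-Sucnr1 KO replicate 4 and -0.07 without Sucnr1 fl/fl replicate 1.

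*Angptl8* (ENSMUSG00000047822, chr9:21835510-21837347, plus strand), which overlaps *Dock6* on the other strand (the counting used strand), was set apart by 1 library. It was at 77.6, 23.2 and 15.5 CPM in the controls and 18.5, 21.5 and 13.6 CPM in Hep-Sucnr1 KO. Sucnr1 fl/fl replicate 1 was 5.71 times the lowest library, and the other 5 libraries lay between 13.6 and 23.2 CPM with no order by genotype. The genotype log2 fold change of -0.78 (SE 0.42, 95% interval -1.79 to 0.23) shrank to -0.14 without that library, to -0.16 on day 2 alone and to -0.04 with the library index split described for *Inhbe* as a further term. The ratio of Hep-Sucnr1 KO to Sucnr1 fl/fl was 0.239 on day 1, where that library is the only control, and 0.905 on day 2.

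Sucnr1 fl/fl replicate 1 had the highest values also of several lipogenic genes that, like *Angptl8*, respond to insulin and glucose. *Srebf1*, the gene of SREBP1c, was at 179.0 CPM there against 78.3 to 120.4 CPM in the others. Among genes chosen after their values were seen, *Fasn* was at 843.6 CPM against 225.1 to 484.8 CPM, and *Acly* at 729.3 against 288.0 to 440.1 CPM. It also had the highest sums of sinusoidal endothelial (43.6 CPM) and stellate cell markers (24.1 CPM), and the part of these in the *Angptl8* value was not tested.

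Over the 22 lipogenic targets of SREBP1c and ChREBP, 9 had a higher and 13 a lower point estimate, with a median log2 fold change of -0.08 and 0 past an unadjusted p of 0.05 in edgeR. *Pnpla3* had the highest, 0.66 (SE 0.47), and *Txnip*, a glucose-induced ChREBP target, the lowest, -0.76 (SE 0.45). *Mlxipl*, the gene of ChREBP, was at 120.1 ± 8.96 and 131.7 ± 15.7 CPM in the respective genotypes. Of 27 PPARα targets, the fasting programme to which *Angptl4* and *Fgf21* belong, 26 were tested, and 6 point estimates were higher and 20 lower, with a median of -0.08 and 0 past the adjusted threshold (edgeR). At an unadjusted p under 0.05 there were 2 of the 26, against 3.73% of all genes tested. Both were lower and named after their values were seen: *Cyp4a10*, a fatty acid hydroxylase, at -0.94 (SE 0.38), and *Creb3l3*, a liver transcription factor that cooperates with PPARα on *Fgf21*, at -0.29 (SE 0.11). *Cyp4a14* had the lowest value of the list, -1.51 (SE 0.73), *Slc25a20*, the mitochondrial carnitine carrier, the highest, 0.17 (SE 0.20), and *Ppara* itself was at 7.39 ± 1.98 and 6.81 ± 2.45 CPM. The *Cyp4a* genes are close paralogs, so their counts are uncertain.

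*Lect2* (ENSMUSG00000021539, chr13:56542464-56548502, minus strand) varied most among the Hep-Sucnr1 KO cultures. It was at 25.7, 29.9 and 28.4 CPM in the controls and 34.1, 75.3 and 15.7 CPM in Hep-Sucnr1 KO. Both its highest and its lowest value came from Hep-Sucnr1 KO libraries of the same extraction day, 4.81-fold apart, while the controls had a coefficient of variation of 7.70%. The log2 fold change of 0.56 (SE 0.49, 95% interval -0.60 to 1.73) turned to -0.31 without Hep-Sucnr1 KO replicate 4 and rose to 0.97 without replicate 5 (p = 0.7 over all 6, exact permutation test).

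**Figure D3:**
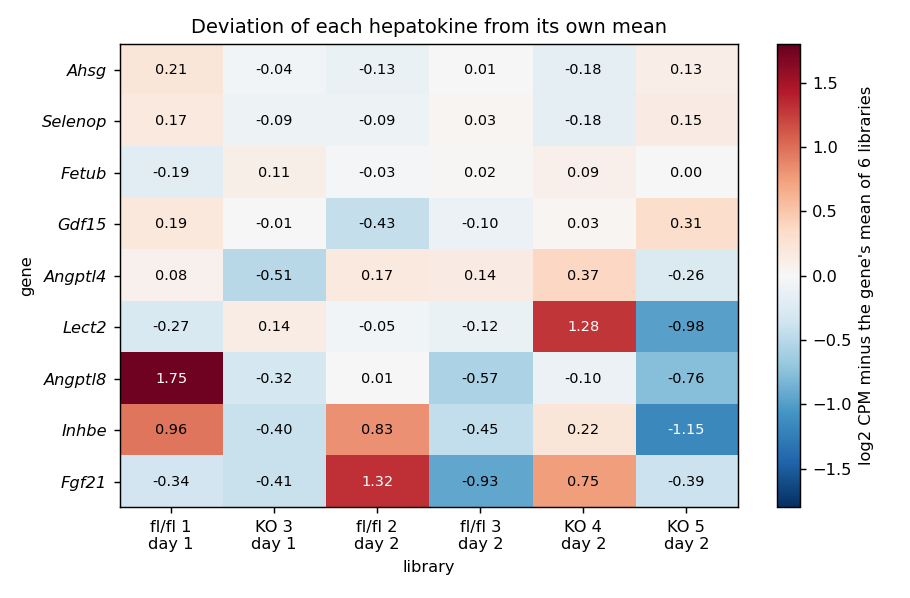
Deviation of each hepatokine's log2 CPM from its own mean over the 6 libraries (colour and number, blue below and red above), with the libraries in columns by extraction day. The largest deviations are *Angptl8* in Sucnr1 fl/fl replicate 1 (1.75), *Fgf21* in Sucnr1 fl/fl replicate 2 (1.32) and *Lect2* in Hep-Sucnr1 KO replicate 4 (1.28), and no column is of 1 colour throughout.

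Different libraries were thus extreme for different hepatokines. Sucnr1 fl/fl replicate 1 was highest for 4 members (*Ahsg*, *Selenop*, *Angptl8*, *Inhbe*), Hep-Sucnr1 KO replicate 4 for 2 (*Lect2*, *Angptl4*) and lowest for 2 (*Ahsg*, *Selenop*), and Hep-Sucnr1 KO replicate 5 was lowest for 3 (*Lect2*, *Angptl8*, *Inhbe*). The libraries ranked identically for *Angptl8* and *Inhbe*, from Sucnr1 fl/fl replicates 1 and 2 through Hep-Sucnr1 KO replicates 4 and 3 and Sucnr1 fl/fl replicate 3 to Hep-Sucnr1 KO replicate 5. These orders are descriptions over 6 libraries.

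For the 4 members whose log2 CPM spanned more than 1, the genes nearest in pattern were sought among the 11698 genes of at least 1 CPM, by the root mean square (RMS) difference of centred log2 CPM over the 6 libraries. The RMS of each member around its own mean gives the scale: 0.67 for *Lect2*, 0.73 for *Fgf21*, 0.82 for *Angptl8* and 0.72 for *Inhbe*. *Lect2* had the closest neighbours, all cytochromes P450: *Cyp2c54* (0.11), *Cyp1a2* (0.11) and *Cyp2c50* (0.15), of which the *Cyp2c* genes are paralogs that can share reads. *Lect2* and these neighbours all belong to the pericentral gene set that the study used. *Cyp1a2*, an enzyme of pericentral hepatocytes, was at 169.8, 226.4 and 173.3 CPM in the controls and 243.9, 461.7 and 101.3 CPM in Hep-Sucnr1 KO, so it too was highest in Hep-Sucnr1 KO replicate 4 and lowest in replicate 5. Of further pericentral genes, chosen after their values were seen, several had their highest value in the same library: *Glul*, glutamine synthetase, at 1002.3 CPM against 398.2 to 646.0 CPM in the other 5, *Cyp2e1* at 3430.5 against 684.2 to 2077.5 CPM and *Oat* at 354.3 against 80.5 to 135.6 CPM. *Slc1a2* did so too, at 37.7 against 3.75 to 7.95 CPM, but *Axin2* (6.17 CPM) and *Lgr5* (2.79 CPM), Wnt target genes of pericentral cells, had their highest value in Hep-Sucnr1 KO replicate 3, with 5.32 and 2.75 CPM in replicate 4. The periportal *Cyp2f2* was lowest in replicate 4, at 865.7 CPM against 1095.9 to 1579.2 CPM.

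The neighbours of *Fgf21* were *Aoc2* (0.28), *Nedd9* (0.31) and *Chac1* (0.31). *Chac1*, a glutathione-degrading target of ATF4, was at 9.08, 36.8 and 12.3 CPM in the controls and 15.5, 25.5 and 12.8 CPM in Hep-Sucnr1 KO, and its highest libraries were the same 2 as those of *Fgf21*. For *Angptl8* they were *Amotl1* (0.28), *G0s2* (0.33), whose product inhibits adipose triglyceride lipase, and *Ltbp4* (0.34), which had 4.53 CPM (*G0s2*) and 7.15 CPM (*Ltbp4*) in Sucnr1 fl/fl replicate 1. *Inhbe* lay nearest to *Txnip* (0.22), *Mmrn2* (0.25) and *Spry4* (0.29), and *Txnip* was at 338.5, 316.0 and 148.0 CPM in the controls and 111.8, 256.0 and 106.5 CPM in Hep-Sucnr1 KO.

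**Figure D4:**
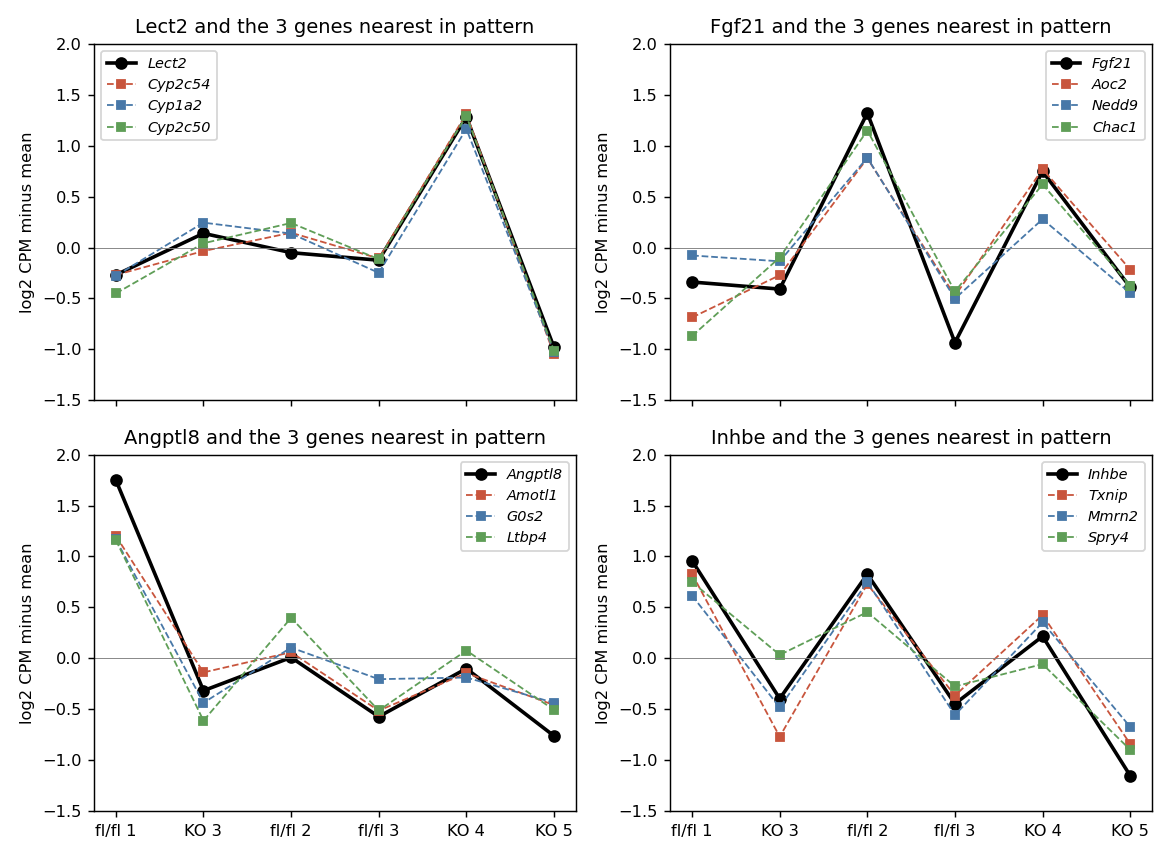
Centred log2 CPM over the 6 libraries (x axis, day 1 first) of *Lect2*, *Fgf21*, *Angptl8* and *Inhbe* (black) and of the 3 genes with the smallest RMS difference from each (coloured, dashed). The lines join libraries only to guide the eye, and the neighbours of *Lect2* lie closest to it, at 0.11 to 0.15.

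Extraction day was compared next, as both genotypes were present on both days with 1 and 2 libraries each. The ranges of the days overlapped for all 9 hepatokines, but the share of all genes tested whose days overlapped was not counted. Of the 9, 0 passed the adjusted threshold in edgeR, which called 0% of all genes, and 0 in DESeq2, which called 1.49%. At an unadjusted p under 0.05 there was 1, against 7.49% of all genes: *Angptl8*, with a log2 difference of day 2 against day 1 of -1.16 (SE 0.44, unadjusted p = 0.0334, adjusted p = 0.594, edgeR). This rests on Sucnr1 fl/fl replicate 1, since the log2 difference was -0.08 without it and -2.03 without the only other day 1 library. The other 8 lay between -0.30 (SE 0.48) for *Inhbe* and 0.82 (SE 0.66) for *Fgf21*, and the median of the 9 was -0.06, beside 0.02 over all genes. The summed Kupffer cell markers were 25.3 and 3.61 CPM on day 1 and 20.3 to 74.4 CPM on day 2, and their part in the day values was not tested.

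Among the companion lists, 0 genes passed by day in edgeR and 1 passed in DESeq2, *Lpl*, which was higher on day 2 in both tools (log2 difference 1.90, adjusted p = 0.509 in edgeR, and 1.89, adjusted p = 0.00813 in DESeq2). Its values were 2.84 and 3.83 CPM on day 1 and 6.95 to 25.7 CPM on day 2. At an unadjusted p under 0.05 in edgeR, further genes, named after their values were seen, were *Fap* (higher on day 2) and *Tie1* (lower) among 24 receptors and partners, *Foxo1*, *Foxo3* and *Bhlhe40* (lower) among 30 regulators, and *Sesn2* (higher) and *Trib3* (lower) among 26 stress response targets. In the remaining lists they were *Cpt1a* and *Ucp2* (higher) among 26 PPARα targets, *Gpam* (lower) among 22 lipogenic genes, *Selenon* (higher) among 25 selenoprotein genes, and *Lcn2* and *Il1rn* (higher) among 33 other secreted factors. Of all genes tested, 7.49% passed that unadjusted p by day and DESeq2 called 1.49%, so the unadjusted calls are not read as day effects of these lists. The medians of these 7 lists lay between -0.19 for the lipogenic genes and 0.13 for the stress response targets. Cell type markers lay further out in part, with day medians of 2.06 for Kupffer cells (6 of 6 higher) and -0.94 for stellate cells (4 of 4 tested lower). At an unadjusted p under 0.05 (edgeR) there were 3 of these Kupffer cell and 2 of these stellate cell markers. For hepatocyte, sinusoidal endothelial and cholangiocyte markers the medians were 0.00, -0.19 and -0.30, and the 1 adipocyte marker tested was at -0.44.

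Whether the genotype difference itself changed with the day was tested by the interaction term. For *Angptl8* the difference was higher on day 2 by 1.92 on the log2 scale (SE 0.50, 95% interval 0.70 to 3.15, unadjusted p = 0.00867), but it did not pass over all genes (adjusted p = 1.0, edgeR), and with 1 library per genotype on day 1 the term could not be fitted without Sucnr1 fl/fl replicate 1. It was the only 1 of the 9 at an unadjusted p under 0.05, against 3.69% of all genes, and 0 of the 9 and 0% of all genes passed the adjusted threshold.

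Of 29 listed receptors and partners of hepatokines, 27 were in the count table and 24 could be tested. *Kl*, *Ret* and *Mep1a*, named after their values were seen, had too few counts to test, with 1, 8 and 3 read pairs over all libraries. The genes tested had 8 higher and 16 lower point estimates in Hep-Sucnr1 KO, a median log2 fold change of -0.12, and 0 past the adjusted threshold (edgeR). *Klb*, the gene of β-Klotho, was at 22.8, 17.5 and 10.4 CPM in the controls and 10.8, 11.5 and 10.8 CPM in Hep-Sucnr1 KO. Its controls ranged widely, down to below all Hep-Sucnr1 KO libraries, which were nearly equal, and its log2 fold change of -0.58 (SE 0.24) was the lowest among the listed genes of at least 1 CPM. *Fgfr4*, the main FGF receptor of hepatocytes, was at 18.5 ± 3.43 and 16.2 ± 1.22 CPM, with a log2 fold change of -0.18 (SE 0.16).

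The insulin receptor gene *Insr*, which fetuin-A acts on, was at 98.5 ± 16.9 and 79.3 ± 6.85 CPM in controls and Hep-Sucnr1 KO, with a log2 fold change of -0.30 (SE 0.14). *Met*, whose product LECT2 binds, was at 45.0 ± 9.18 and 36.3 ± 3.04 CPM (-0.31, SE 0.17). *Lrp2*, a selenoprotein P receptor of the kidney, was low, at 0.504 ± 0.0721 and 0.548 ± 0.0975 CPM. *Lpl*, the lipase that ANGPTL4 and ANGPTL8 control, had the highest log2 fold change among the listed genes of at least 1 CPM, 0.69 (SE 0.45), but was at 25.7 CPM in Hep-Sucnr1 KO replicate 4 and 2.84 to 10.7 CPM elsewhere. The 1 receptor at an unadjusted p under 0.05, named after its values were seen, was the activin receptor *Acvr1b* at 73.4, 53.9 and 50.8 CPM in the controls and 40.2, 42.1 and 43.1 CPM in Hep-Sucnr1 KO, with a log2 fold change of -0.49 (SE 0.14). These groups did not overlap. For all genes tested, the shares were 3.73% at that p and 10.6% without overlap, so 1 of 24 is near the background. In DESeq2, 0 genes of the lists of receptors, regulators, stress response, PPARα, lipogenic and selenoprotein genes passed by genotype.

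Of 30 transcriptional regulators of hepatokine genes, 13 had higher and 17 lower point estimates, with a median of -0.05 and 0 past the adjusted threshold (edgeR). At an unadjusted p under 0.05 there were 2, both lower: *Creb3l3*, given above, and *Ppargc1a*, the coactivator of the fasting response, at 3.24 ± 0.735 and 2.06 ± 0.478 CPM, a log2 fold change of -0.63 (SE 0.26). *Atf5*, a stress-induced relative of *Atf4*, had the highest, 0.22 (SE 0.13). Among 36 other liver-secreted factors, 33 were tested, with 19 point estimates higher, 14 lower and a median of 0.03. At an unadjusted p under 0.05, 3 were higher (*Fgl1*, *Lcn2*, *Orm1*) and 2 lower (*Inhba*, *Inhbb*), named after their values were seen except *Fgl1* and *Inhba*. In edgeR 0 passed the adjusted threshold, and in DESeq2 1 did, *Fgl1*. The shares over all genes tested, to be read beside both lists, were 3.73% at that unadjusted p and 0.0463% in DESeq2.

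*Fgl1*, a fibrinogen-related hepatokine, was at 138.3, 214.1 and 187.2 CPM in the controls and 487.4, 339.7 and 350.5 CPM in Hep-Sucnr1 KO, without overlap, a log2 fold change of 1.12 (SE 0.23, adjusted p = 0.998 in edgeR and 0.0123 in DESeq2). *Inhba*, an activin subunit related to that of *Inhbe*, was at 154.1, 139.9 and 173.9 CPM in the controls and 127.5, 79.1 and 87.4 CPM in Hep-Sucnr1 KO, also without overlap, a log2 fold change of -0.70 (SE 0.17). Of all genes tested, 10.6% had genotypes that did not overlap. *Inhbb* was at 18.1, 12.5 and 12.2 CPM against 6.39, 11.3 and 10.1 CPM, with -0.63 (SE 0.26), whereas *Inhbc*, chosen after its values were seen, was at 12.2, 13.7 and 12.4 CPM against 9.65, 21.9 and 9.96 CPM.

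**Figure D5:**
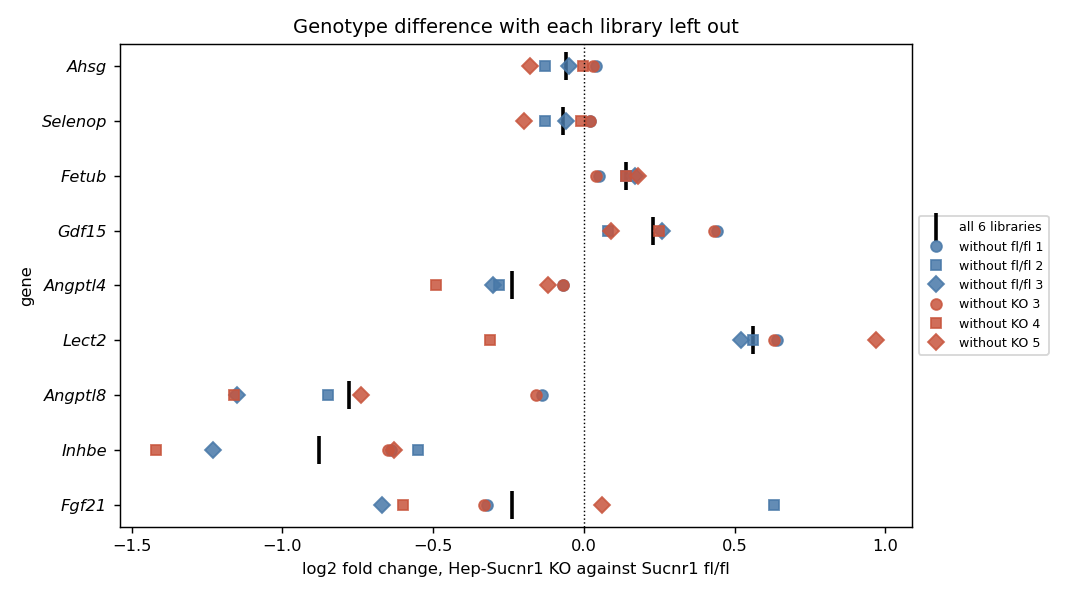
Genotype log2 fold change (Hep-Sucnr1 KO over controls) for each hepatokine with all 6 libraries (black bar) and with each library left out in turn (blue, a Sucnr1 fl/fl library; red, a Hep-Sucnr1 KO library). *Lect2* and *Fgf21* cross 0 widely, *Ahsg* and *Selenop* cross it within 0.20 of it, and *Angptl8* moves from -1.16 to -0.14.

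The plot of the fold changes with libraries left out shows which members kept their side of 0: *Fetub* (0.04 to 0.18) and *Gdf15* (0.08 to 0.44) stayed above it, *Angptl4*, *Angptl8* and *Inhbe* below it, and *Ahsg*, *Selenop*, *Lect2* and *Fgf21* lay on both sides.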

How the data were processed

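Counts per gene of 6 stranded paired-end mRNA libraries, 3 of each genotype, were deposited in 1 table, and 0 columns belonged to other samples. The authors trimmed reads with Trim Galore 0.6.7, aligned them to GRCm38 with STAR 2.7.10a and counted read pairs per gene by strand with featureCounts and an Ensembl annotation, without normalization. How multi-mapping pairs were counted is not given in the sources used here. The genes of the table had a symbol in 25096 cases and none in 88.

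Libraries of 30504248 to 38770694 counts put 1 CPM at over 30 counts. For *Fgf21* and *Inhbe*, the least abundant members, the libraries differed by more than counting error. The common biological coefficient of variation was 0.206. Genotype and extraction day were fitted together with edgeR 4.0.16 (R 4.3.3, quasi-likelihood test, TMM factors, mean normalized count above 5, Benjamini-Hochberg adjustment over 15105 genes, threshold 0.05), and their interaction in a second fit. Genes of unequal length were compared as RPKM, computed here from CPM and the exon union of the GENCODE annotation of GRCm38, which is older than the annotation of the counts. Promoter windows were those of RefSeq on GRCm38.p6. Scripts were tested on simulated data. As replicates are separately labelled samples, with nothing further on litters or cultures, p-values measure the spread between these samples.

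Alternatives were DESeq2 1.42.0 (the package used in the study, with the extraction date), DESeq2 size factors or library size alone, no filter or edgeR's own, no covariate, day 2 alone, the library index series as a term, each library left out, and other gene lengths. The members, gene lists and tests were chosen with earlier results of these data known. Named were the members, *Sucnr1*, 13 partners or regulators (1 of them is not reported here) and, per list, the highest and the lowest log2 fold change among genes of at least 1 CPM, plus the 3 genes nearest in pattern to members spanning more than 1 in log2 CPM. Genes outside this rule are named as such.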

Additional observations from a re-analysis of the deposited data

Results flagged for a closer look

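For *Gdf15* the genotypes lay in opposite order on the 2 extraction days. The Hep-Sucnr1 KO library was below the Sucnr1 fl/fl library on day 1 (299.7 against 343.1 CPM, ratio 0.873). Both Hep-Sucnr1 KO libraries were above both Sucnr1 fl/fl libraries on day 2 (308.3 and 374.3 against 223.4 and 280.1 CPM, ratio 1.36). The difference between the days was tested as the interaction of genotype and day, which was 0.63 on the log2 scale (SE 0.35) and did not pass (adjusted p = 1.0, edgeR's quasi-likelihood test). The share of all genes tested with such an order was not counted, so it is not read as particular to *Gdf15*.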

How the results depend on the processing

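No paired analysis was made, since the sample labels name no pairs across genotypes, and extraction day was a term of the fit. Of 234 log2 fold changes recomputed for the 9 hepatokines under the alternatives, 217 kept their direction and their side of the threshold, 17 turned direction, and 0 of the members passed an adjusted p of 0.05 under any of them. *Fgf21* by genotype had no adjusted p in DESeq2 and was counted as not passing. The smallest adjusted p was 0.631 for genotype (*Lect2*) and 0.153 for extraction day (*Angptl8*, no filter). With each library left out in turn, the genotype log2 fold changes ranged from -0.67 to 0.63 for *Fgf21*, -0.18 to 0.04 for *Ahsg*, -0.20 to 0.02 for *Selenop* and -0.31 to 0.97 for *Lect2*, and the day differences from -0.31 to 0.03 for *Ahsg*, -0.07 to 0.15 for *Fetub*, -0.24 to 0.08 for *Selenop*, -0.39 to 0.59 for *Lect2*, -0.49 to 0.19 for *Gdf15* and -0.67 to 0.08 for *Inhbe*. The other turns were 1.35 for *Fgf21* and 0.10 for *Inhbe* with the index series as a term, and 0.03 for *Ahsg* and 0.02 for *Selenop* on day 2 alone; the cause was not tested. Over all genes, DESeq2 called 7 by genotype and 225 by day, and edgeR called 122 by day with no filter and 0 to 29 with a library left out, 29 without Sucnr1 fl/fl replicate 2. Longest-transcript lengths moved the RPKM of *Ahsg* to 3564.2, *Selenop* to 1743.0, *Gdf15* to 197.3 and *Fetub* to 194.1. *Fgf21* had 12 to 63 read pairs a library, and its libraries differed by more than counting error, so depth was not its only limit.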
